A study of Mus musculus and Homo sapiens with 47 samples.

Results

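The comparison set UNC1999 against MAK683, each after 5 days in culture with the compound, in the human B cell lymphoma line SUDHL10. Its members were the 2 UNC1999 day 5 RNA-seq libraries and the single MAK683 day 5 library, chosen by their labels, 3 of the 47 samples of the series and 3 of its 13 SUDHL10 RNA-seq libraries. The rest of the series holds 2 histone ChIP samples of SUDHL10 and samples of mouse intestine, wild type or with Eed or Ezh2 deleted. All treated SUDHL10 cultures received 5 uM of 1 compound. The UNC1999 groups were collected at days 1, 3, 5 and 6 with 2 libraries each, and the MAK683 groups at days 1, 3 and 5 with 1 library each. A further 2 libraries came from cells labelled as not treated at day 5, and the labels name no vehicle. All libraries came from 1 cell line, which limits them as a model of the disease. The replicates are labelled as biological, but no separate cultures are named. The p-values therefore cover the spread among these libraries alone, and that spread may be technical.

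Polycomb repressive complex 2 (PRC2) places methyl groups on lysine 27 of histone H3, and the trimethylated form keeps developmental and lineage genes silent. EZH2 or its relative EZH1 is the catalytic subunit, SUZ12 holds the complex together, and EED reads the trimethyl mark and stimulates the enzyme. UNC1999 competes with the methyl donor in the active site of EZH2 and EZH1, whereas MAK683 binds the pocket of EED that reads the mark. SUDHL10 is a germinal-centre type diffuse large B cell lymphoma line with an activating EZH2 mutation, and loss of the mark takes days because it is diluted through cell division. The question was where cells under an inhibitor of the enzyme and cells under a ligand of EED differ after the same time at the same concentration.

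The 13 libraries held 26234896 to 39315662 counts, with 38499845 and 39315662 in the UNC1999 day 5 libraries and 28744047 in the MAK683 day 5 library. B cell markers were high in the 3 day 5 libraries. Levels are given as CPM, counts per 1000000 of the library size after scaling between libraries. MS4A1, which encodes CD20, stood at 1050.3 and 958 CPM under UNC1999, 1007 CPM under MAK683 and 1023 and 933 CPM without compound. CD79A, a signalling chain of the B cell receptor, stood at 863 and 889 CPM under UNC1999, 752 CPM under MAK683 and 595 and 704 CPM without compound. Of 10 B cell markers, MS4A1, CD79A, CD79B and CD74 were not called between the compounds. CD79A had a log2 difference of 0.22 (edgeR adjusted p = 0.061) and was called under 7 of 11 other settings, at 0.23 to 0.28. CD74 was called under the filter of 10 CPM alone, at −0.21 (edgeR adjusted p = 0.0471) in place of −0.17 (edgeR adjusted p = 0.137). Of the 27 T and NK cell markers, 5 had no count in any of the 3 libraries, CD3D and CD8B among them, as had 5 of the 29 myeloid markers, CD14 and CSF3R among them. Of the 21 stromal and epithelial markers, 3 had none, and of the 18 erythroid and megakaryocyte markers, 9 had none.

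The MAK683 day 5 library lay near the untreated libraries, and every result below rests on it. Over 11664 genes its log2 levels correlated with those of the untreated libraries at Pearson r = 0.954 and 0.957, against 0.904 with MAK683 day 3 and 0.895 and 0.897 with UNC1999 day 5. These correlations run across genes, which are not independent replicates. On the first principal component, with 43.4% of the variance, UNC1999 day 5 scored 44.2 and 42.0, MAK683 day 5 −42.2, MAK683 day 3 −2.91 and the untreated libraries −65.1 and −64.6. On the second, with 33.8%, MAK683 day 5 had the highest score of the 13 libraries, 62.5, against 26.2 and 23.7 without compound. Its metallothionein transcripts lay on the side of the treated libraries instead: MT2A stood at 8.75 and 8.60 CPM under UNC1999, 2.70 CPM under MAK683 and 737 and 1017 CPM without compound. How far the state of this library contributes to each difference was not tested, and with 1 library per MAK683 day it cannot be told apart from the compound's effect. Counts for each gene group are therefore also given with MAK683 day 3 in place of MAK683 day 5. Those comparisons share the UNC1999 day 5 libraries and differ in day.

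Between the compounds, 7955 of 15278 genes tested, or 52.1%, were called at an adjusted p under 0.05. UNC1999 cells were higher for 4034 genes (26.4% of those tested) and lower for 3921 (25.7%). The median log2 difference over all genes was 0.02. Differences of at least 8-fold were found for 430 genes higher and 276 lower under UNC1999. The test was edgeR's quasi-likelihood F test with Benjamini-Hochberg adjustment over all genes, and all adjusted p values below come from it. The single MAK683 library has no spread of its own, so it was taken to vary as the replicated groups do, with a common biological coefficient of variation of 0.0927. Against the untreated cells, 58.7% of genes were called under UNC1999 (31.3% higher, 27.4% lower) and 29.6% under MAK683 (15.5% higher, 14.1% lower). With MAK683 day 3 as the comparator, 32.9% were called (15.2% higher, 17.8% lower). These contrasts share libraries, so their values are set side by side and nothing is read from their overlap. The list counts below stand beside the shares of all genes. Those were 26.4% higher and 25.7% lower against MAK683 day 5, and 15.2% and 17.8% against MAK683 day 3.

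Of the transcripts of the compounds' targets, EED was not called, EZH2 was slightly lower under UNC1999 and EZH1 was lower by more than 2-fold. EED, the target of MAK683, stood at 34.9 and 38.2 CPM under UNC1999, 33.2 CPM under MAK683 and 35.0 and 32.4 CPM in untreated cells. Its log2 difference between the compounds was 0.14 ± 0.12 (SE; edgeR adjusted p = 0.357). EZH2 had 179.9 and 209 CPM under UNC1999, 259 CPM under MAK683 and 228 and 209 CPM without compound. It fell by 0.41 ± 0.10 on the log2 scale (edgeR adjusted p = 0.00154), with both UNC1999 libraries below the MAK683 library and 1 level with an untreated library. EZH1 stood at 40.3 and 47.5 CPM under UNC1999, 102 CPM under MAK683 and 97.7 and 77.0 CPM without compound, a log2 difference of −1.22 ± 0.14 (edgeR adjusted p = 6.98e-08). SUZ12 had 194 and 179.7 CPM under UNC1999, 119 CPM under MAK683 and 164 and 168 CPM in untreated cells, a log2 difference of 0.65 ± 0.10 (edgeR adjusted p = 4.29e-06). The compounds act on the proteins, so these transcripts do not check the labels. CDKN2A, a cell-cycle inhibitor locus that PRC2 silences in many cell types, stood at 102 and 105 CPM under UNC1999, 152 CPM under MAK683 and 141 and 155 CPM without compound. It was lower under UNC1999 by a log2 difference of −0.56 ± 0.10 (edgeR adjusted p = 2.53e-05) and was well expressed in all 13 libraries.

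The genes with the largest rise under UNC1999 had under 1 CPM under MAK683 and in untreated cells, and several are best known from epithelia or nerve cells. AGR2, a disulfide isomerase of the endoplasmic reticulum of mucus-secreting epithelia, reached 118 and 97.5 CPM under UNC1999, against 0.38 CPM under MAK683. It stood at 0.281 and 0.0589 CPM in untreated cells. The log2 difference was 8.13 ± 0.27 (edgeR adjusted p = 2.1e-16). Under UNC1999 its level in CPM was 1.63 and 1.82 at day 1, 16.5 and 17.7 at day 3 and 195 and 191 at day 6, so the libraries of each day lay above those of the day before. Under MAK683 it was highest at day 3, with 1.73 CPM at day 1, 4.78 at day 3 and 0.38 at day 5.

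SOX9, a transcription factor of cartilage and of epithelial progenitors, had 10.1 and 7.68 CPM under UNC1999 and no count under MAK683. It had 0.0562 and 0.0589 CPM in untreated cells. Set against a floor of 3 counts in the MAK683 library, it was at least 85.3-fold higher (edgeR adjusted p = 1.7e-09). It had 0.222 and 0.0815 CPM in the UNC1999 libraries at day 3 and 13.3 and 14.3 CPM at day 6, so most of its level appeared between days 3 and 5. The other genes with no count in the MAK683 library were TST, a mitochondrial sulfurtransferase, MTUS1, which encodes a microtubule-associated protein, LY6E, a membrane-anchored protein that interferon can induce, IGSF9B, an adhesion molecule of inhibitory synapses, ROR2, a receptor for Wnt5a, FHAD1 and CTXN1. Their lower bounds were 84.1-fold for TST, 65.7-fold for LY6E, 62.1-fold for MTUS1, 53.1-fold for IGSF9B, 44.1-fold for ROR2, 32.3-fold for FHAD1 and 15.0-fold for CTXN1. ROR2 stood at 5.10 and 4.08 CPM under UNC1999 and had no count in the MAK683 day 5 library or in either untreated library. NKD1, which restrains Wnt signalling through Dishevelled, had 7.82 and 5.19 CPM under UNC1999, against 1 count (0.0346 CPM) under MAK683 and 0 and 0.0295 CPM without compound.

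As with NKD1, 4 further genes had 1 count each in the MAK683 library. ITGAD, an integrin alpha chain of leukocytes, stood at 18.2 and 19.4 CPM under UNC1999, 0.0346 CPM under MAK683 and 0.281 and 0 CPM in untreated cells. The ratio was 543, with an exact 95% interval of 97.3 to 21456 that covers counting error only. PARVG, an adaptor of integrin signalling in blood cells, had 5.96 and 7.46 CPM under UNC1999 and 0.0346 CPM under MAK683, a ratio of 194 (34.7 to 7693). TBC1D4, a Rab GTPase-activating protein of glucose transporter traffic, and KCTD12, an auxiliary subunit of GABA-B receptors, had ratios of 255 (45.5 to 10069) and 230.0 (41.1 to 9098). CTXN1 differed from the rest in its MAK683 levels: 1.46 CPM was found at day 1, 3.54 CPM at day 3 and no count at day 5, while UNC1999 gave CPM values of 1.57 and 1.65 at day 1, 4.94 and 5.68 at day 3 and 1.19 and 1.91 at day 5. All 14 of these genes were called higher under UNC1999 than in untreated cells. None of them was called higher under MAK683 day 5 than in untreated cells and 2 were called lower, LY6E, with no count under MAK683 against 0.225 and 0.236 CPM without compound, and TBC1D4, at 0.0346 CPM against 0.618 and 0.0884 CPM.

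**Figure D1:**
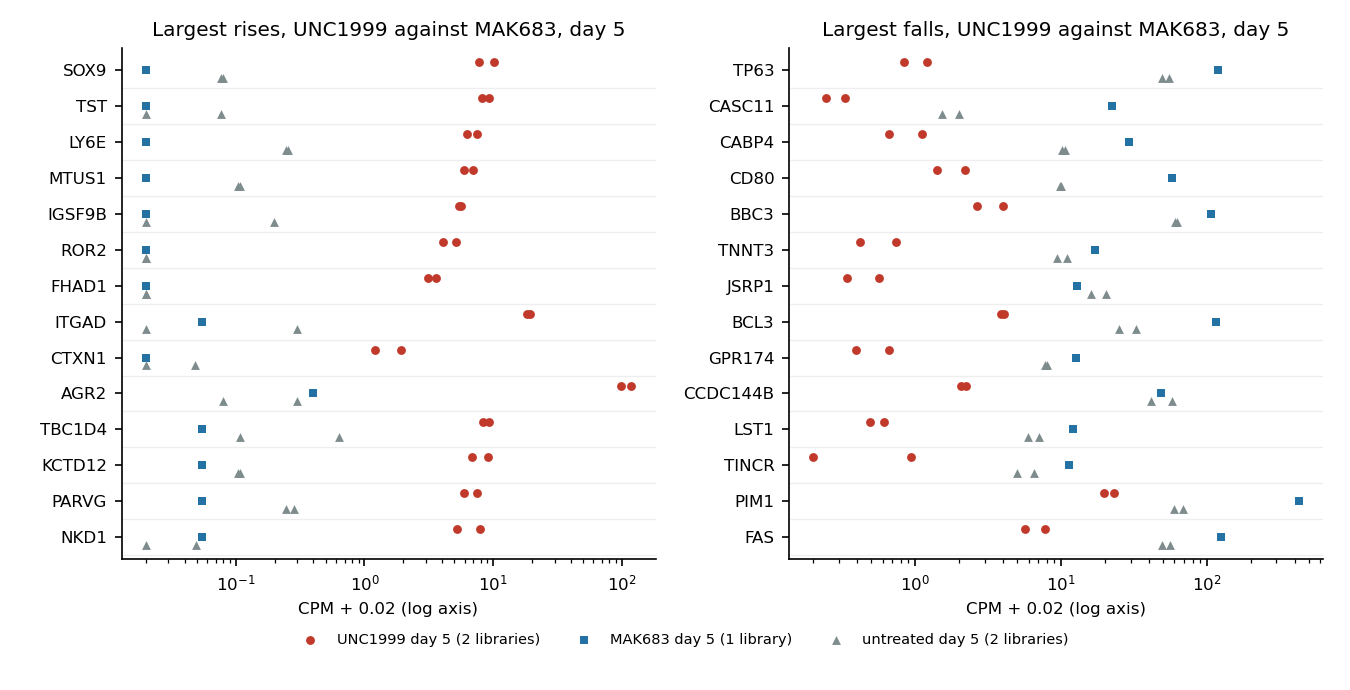
The 14 genes with the largest rise (left) and the 14 with the largest fall (right) under UNC1999 against MAK683 at day 5, one row per gene, with CPM plus a small offset on a log axis and one point per library (UNC1999 day 5, MAK683 day 5, untreated day 5). The UNC1999 points lie on one side of the MAK683 point in each row, with AGR2 at 118 and 97.5 CPM against 0.38 CPM and PIM1 at 19.6 and 23.2 CPM against 426 CPM.

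The genes with the largest fall were, in contrast, mostly expressed in untreated cells, and several encode regulators of cell death and B cell signalling. TP63, a transcription factor of the p53 family, stood at 1.19 and 0.82 CPM under UNC1999, against 119.6 CPM under MAK683. Untreated cells had 49.1 and 55.0 CPM. The log2 difference was −6.89 ± 0.30 (edgeR adjusted p = 8.7e-15). BBC3, which encodes the pro-apoptotic BH3-only protein PUMA, had 2.64 and 3.98 CPM under UNC1999, 106 CPM under MAK683 and 62.2 and 60.4 CPM without compound, a log2 difference of −5.00 ± 0.22 (edgeR adjusted p = 8.7e-15). FAS, the death receptor, had 5.65 and 7.75 CPM under UNC1999, 125 CPM under MAK683 and 48.9 and 55.7 CPM without compound, a log2 difference of −4.22 ± 0.18 (edgeR adjusted p = 6.75e-15). For these 3 genes the UNC1999 libraries were lowest, the untreated libraries between and the MAK683 library highest.

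PIM1, a survival kinase induced by cytokine signals, stood at 19.6 and 23.2 CPM under UNC1999 and 426 CPM under MAK683, with 59.9 and 68.2 CPM in untreated cells. The log2 difference was −4.31 ± 0.18 (edgeR adjusted p = 3.23e-15). PIM1 was also called between MAK683 and untreated cells, with a log2 difference of 2.73 (edgeR adjusted p = 9.3e-12). BCL3, an atypical inhibitor-of-kappa-B protein that works with NF-kappa-B dimers, had 3.86 and 4.03 CPM under UNC1999, 115 CPM under MAK683 and 24.8 and 32.5 CPM in untreated cells. CD80, a co-stimulatory ligand for CD28, had 1.40 and 2.19 CPM under UNC1999, 58.1 CPM under MAK683 and 9.78 and 9.99 CPM in untreated cells. Their log2 differences between the compounds were −4.87 ± 0.33 for BCL3 and −5.01 ± 0.32 for CD80. CASC11, a long non-coding RNA, had 0.311 and 0.224 CPM under UNC1999, 22.2 CPM under MAK683 and 1.52 and 1.97 CPM in untreated cells.

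The other genes among the 14 falls were CABP4, GPR174, JSRP1, TNNT3, LST1, TINCR and CCDC144B. GPR174 is a lysophosphatidylserine receptor of lymphocytes, and JSRP1 and TNNT3 encode muscle proteins. Their log2 differences lay between −5.07 for CABP4 and −4.35 for TINCR. CCDC144B is a pseudogene with close copies, so its counts may be shared with them. All 14 genes were called lower under UNC1999 than in untreated cells, and 8 of the 14 were called higher under MAK683 than in untreated cells.

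Few of these 14 falls were present at day 3. There, 2 of the 14 genes were lower under UNC1999 than under MAK683, CASC11 and CCDC144B, and 2 were higher, PIM1 and BBC3. PIM1 had 37.7 and 61.9 CPM under UNC1999 at day 3, against 14.5 CPM under MAK683, the reverse order of day 5. Of the 14 rises, 12 were higher under UNC1999 at day 3 as well, all but CTXN1 and PARVG, and none was lower. At day 1 only ITGAD of the 14 was higher, at 1.73 and 1.34 CPM under UNC1999 against 0.102 CPM under MAK683.

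**Figure D2:**
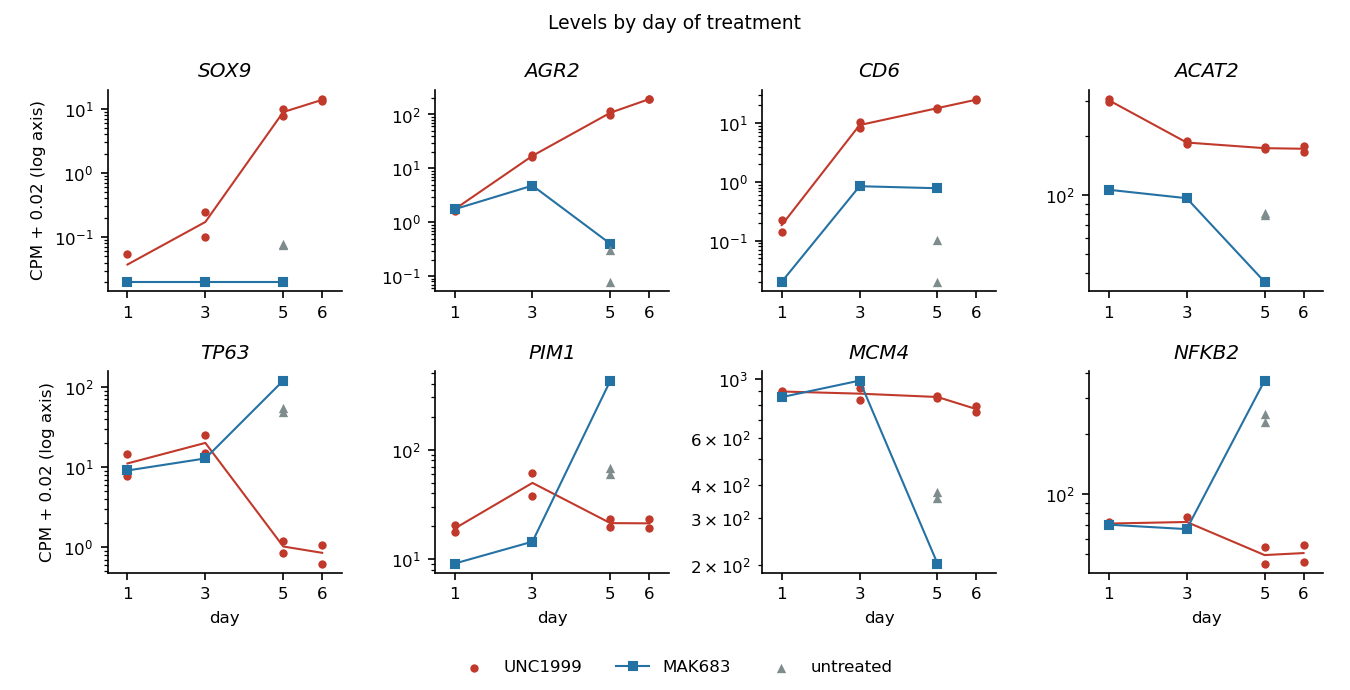
Levels of 8 genes by day of treatment, with CPM plus a small offset on a log axis and one point per library, in UNC1999 cells at days 1, 3, 5 and 6 (the line joins the means), in MAK683 cells at days 1, 3 and 5 and in untreated cells at day 5. AGR2 climbs with each day under UNC1999 and is at 0.38 CPM in the MAK683 day 5 library, while PIM1 stands at 426 CPM in that library and at 61.9 CPM or less in the other treated libraries.

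The late response to UNC1999 was examined as a set of 942 genes that were at least 4-fold higher in UNC1999 cells at day 6 than both at day 1 and in untreated cells. The set was chosen after the values were seen and without the day 5 libraries of either compound, and its choice favours high levels under UNC1999 and sets low levels in untreated cells. Of these genes, 478 (50.7%) were higher and 18 (1.91%) lower under UNC1999 than under MAK683 at day 5, beside the 26.4% and 25.7% of all genes. Their summed level was 7928 and 7673 CPM under UNC1999, 3688 CPM under MAK683 and 1022 and 956 CPM in untreated cells. In the UNC1999 libraries the sum in CPM was 853 and 876 at day 1, 3737 and 3727 at day 3, 7928 and 7673 at day 5 and 9646 and 9773 at day 6. In the MAK683 libraries it was 878 at day 1, 1926 at day 3 and 3688 at day 5. The share of the genes above 1 CPM was 69.5% and 67.5% under UNC1999 at day 5, 36.8% under MAK683 at day 5 and 17.8% and 16.6% without compound. At day 5 the MAK683 sum was close to that of UNC1999 at day 3, but the share of genes above 1 CPM was not. That share was 36.8% under MAK683 at day 5 and 47.6% and 50.2% under UNC1999 at day 3.

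**Figure D3:**
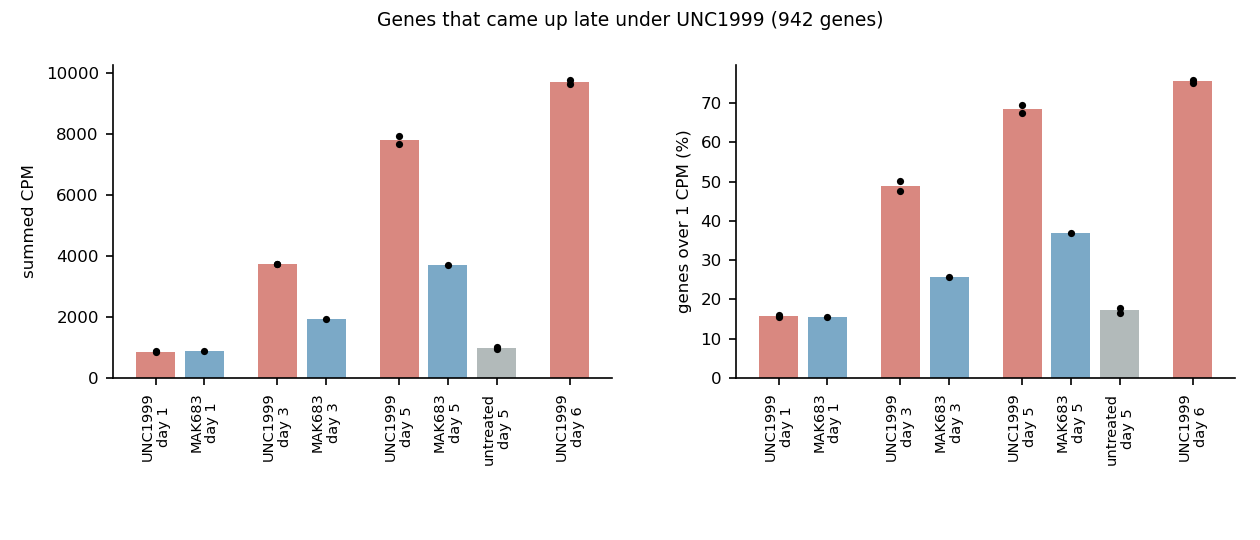
Summed CPM (left) and percent of genes above 1 CPM (right) for 942 genes at least 4-fold higher in UNC1999 day 6 cells than in UNC1999 day 1 and untreated cells, with bars at the mean of each group and a point per library. The MAK683 day 5 library, at 3688 CPM, stands above the MAK683 libraries of days 1 and 3 and below the UNC1999 day 5 libraries at 7928 and 7673 CPM, while the low untreated bars are set by the choice of genes.

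Among genes for transcription factors of development outside the HOX clusters, many of them classical PRC2 targets, 37 of 139 passed the filter on low counts, and a gene could pass it through the group where it was high. Of these, 10 were higher and 6 lower under UNC1999 than under MAK683. The share higher lay near the 26.4% of all genes, and the share lower, 16.2%, lay below their 25.7%. The median log2 difference of the list was 0.58, or 0.22 with genes at no count set to their bound. SOX2, a pluripotency and neural factor, stood at 6.29 and 5.12 CPM under UNC1999, 0.553 CPM under MAK683 and 0.0562 and 0.0589 CPM without compound, a log2 difference of 3.36 ± 0.53 (edgeR adjusted p = 1.07e-05). PITX1, a factor of hindlimb and pituitary, had 332 and 306 CPM under UNC1999, 203 CPM under MAK683 and 143 and 161 CPM without compound. RUNX2, the bone factor, went the other way, with 20.2 and 23.3 CPM under UNC1999, 88.7 CPM under MAK683 and 47.5 and 51.0 CPM in untreated cells. Of 19 HOX genes tested, 2 were higher and 4 lower (2 lower without UNC1999 replicate 1). These HOX shares, 10.5% higher and 21.1% lower, lay below those of all genes. HOXB9 was at least 6.36-fold higher under UNC1999, at 0.57 and 0.746 CPM against no count under MAK683. Its level in untreated cells, 3.51 and 4.36 CPM, was above both. With MAK683 day 3 as the comparator, 6 developmental factors (16.2%) were higher and 3 (8.11%) lower, beside 15.2% and 17.8% of all genes. For HOX genes, 1 was higher and 1 lower there.

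A few markers of other blood lineages were called. Of 27 T and NK cell markers, 13 passed the filter on low counts, and 4 of these (30.8%) were higher and none lower. Of 29 myeloid markers, 14 passed it, and 5 of these (35.7%) were higher and none lower (2 higher without UNC1999 replicate 1, where CSF1R, FCN1 and LYZ were not called). The shares higher lie near the 26.4% of all genes, and a marker such as CD33 could pass the filter through the UNC1999 libraries alone. With MAK683 day 3 as the comparator, 6 T and NK markers were higher and 1 lower, and 3 myeloid markers were higher and none lower. CD6, a receptor of T cells and some B cells, stood at 17.6 and 18.4 CPM under UNC1999, 0.761 CPM under MAK683 and 0.0843 and 0 CPM without compound, a log2 difference of 4.55 ± 0.36 (edgeR adjusted p = 1.3e-10). CD33, a myeloid sialic acid-binding receptor, had 0.984 and 2.01 CPM under UNC1999 and no count under MAK683 or without compound, at least 14.5-fold higher. CSF1R, the receptor of macrophage colony-stimulating factor, had 2.62 and 2.04 CPM under UNC1999 and 0.484 CPM under MAK683, a log2 difference of 2.26 (edgeR adjusted p = 0.0186) that was not called without UNC1999 replicate 1, at 2.06 (edgeR adjusted p = 0.073). The summed level of the 27 T and NK markers was 266 and 250.4 CPM under UNC1999, 175 CPM under MAK683 and 170.1 and 172 CPM without compound. Most of that sum was LCK alone, with 166 and 152 CPM under UNC1999, 109.8 CPM under MAK683 and 119.6 and 124 CPM without compound. The summed level of the 29 myeloid markers was 35.5 and 31.0 CPM under UNC1999, 17.8 CPM under MAK683 and 22.5 and 17.8 CPM without compound. In bulk RNA, fewer cells of a type and less RNA per cell cannot be told apart, and the part of either in these results was not tested. Of 15 stromal and epithelial markers tested, 2 were higher and 2 lower (1 higher without UNC1999 replicate 1, none lower without replicate 2), and of 5 erythroid and megakaryocyte markers none was called. No marker of either list was called against MAK683 day 3.

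Genes of the G1/S phase and DNA replication were mostly higher under UNC1999. Of 45 members, 40 were higher under UNC1999 than under MAK683 and 1 was lower, with a median log2 difference of 1.43. MCM4, a subunit of the replicative helicase, stood at 861 and 849 CPM under UNC1999, 203 CPM under MAK683 and 376 and 358 CPM in untreated cells. FEN1, the flap endonuclease of lagging-strand synthesis, had 225 and 218 CPM under UNC1999, 35.0 CPM under MAK683 and 80.6 and 85.4 CPM in untreated cells. UHRF1, which guides maintenance DNA methylation, had 159 and 189 CPM under UNC1999, 19.9 CPM under MAK683 and 36.9 and 37.6 CPM in untreated cells. In all 3 the MAK683 library was the lowest, below the untreated libraries. Their log2 differences between the compounds were 2.08 ± 0.10, 2.66 ± 0.11 and 3.13 ± 0.14 in that order. With MAK683 day 3 as the comparator none of the 45 was higher and 18 were lower. FEN1, for example, had 222 CPM under MAK683 at day 3. CDKN1B, the cell-cycle inhibitor p27, stood at 51.1 and 50.8 CPM under UNC1999, 249.9 CPM under MAK683 and 169 and 187 CPM without compound. Of 47 genes of G2 and mitosis, 10 were higher and 20 lower, with a median of −0.22, and 6 were higher and 10 lower against MAK683 day 3. At day 5 the share higher, 21.3%, lay below the 26.4% of all genes, and the share lower, 42.6%, above their 25.7%.

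Genes of growth metabolism were mostly higher under UNC1999. Of 30 genes of ribosome biogenesis, 27 were higher and 1 lower, with a median log2 difference of 0.91. POLR1A, the largest subunit of RNA polymerase I, stood at 175 and 161 CPM under UNC1999, 38.2 CPM under MAK683 and 59.8 and 62.2 CPM without compound. Of 20 heat shock genes, 14 were higher and 1 lower (median 0.85). HSPH1, a co-chaperone, had 338 and 335 CPM under UNC1999, 41.0 CPM under MAK683 and 66.5 and 70.7 CPM without compound. Of 31 genes of glycolysis and hypoxia, 17 were higher and 3 lower, with LDHA, lactate dehydrogenase A, at 1172 and 1130.0 CPM under UNC1999, 227 CPM under MAK683 and 599 and 665 CPM without compound. With MAK683 day 3 in place of day 5, these counts were 2 higher and 12 lower for ribosome biogenesis, 2 and 6 for heat shock, and 4 and 12 for glycolysis and hypoxia. Of 46 genes of oxidative phosphorylation, 32 were higher and 1 lower (median 0.45; none lower without UNC1999 replicate 1), and 25 were higher and 3 lower against MAK683 day 3.

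Ribosomal protein genes ran the other way. Of 63, 53 were lower and 1 higher under UNC1999, by a median log2 difference of −0.36. RPS19 had 1142 and 1121 CPM under UNC1999, 1739 CPM under MAK683 and 1366 and 1469 CPM in untreated cells. Against MAK683 day 3, 57 were higher and none lower, with a median of 0.64. Many of these genes have processed pseudogenes, which can take some of their reads.

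Cholesterol synthesis was higher under UNC1999 at each of the 3 days with both compounds. At day 5, 16 of its 20 enzymes were higher and none lower, with a median log2 difference of 1.08. ACAT2, which joins acetyl-CoA units at the start of the pathway, stood at 175 and 170.4 CPM under UNC1999, 36.0 CPM under MAK683 and 79.2 and 80.6 CPM without compound, a log2 difference of 2.26 ± 0.11 (edgeR adjusted p = 2.28e-14). HMGCS1, which makes HMG-CoA, had 719.5 and 753 CPM under UNC1999, 292 CPM under MAK683 and 578 and 599 CPM without compound. At day 3, in libraries that the day 5 comparison does not use, 20 of the 20 enzymes were higher under UNC1999, and at day 1 it was 19. All 20 were also higher under UNC1999 at day 5 than under MAK683 at day 3. At day 1 ACAT2 had 308 and 298 CPM under UNC1999 against 106 CPM under MAK683. At day 3 its log2 difference was 0.94 (edgeR adjusted p = 1.88e-07).

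Related lipid genes were mixed. SREBF2, the transcription factor of the sterol response, had 673 and 609.9 CPM under UNC1999 and 962 CPM under MAK683. The cholesterol exporters ABCA1 and ABCG1 were lower under UNC1999, by log2 differences of −3.06 ± 0.25 and −2.46 ± 0.20. Over the lists, 5 of 15 genes of sterol sensing and uptake were higher and 7 lower, and 2 of 11 genes of sterol export were higher and 6 lower. Of 20 genes of fatty acid synthesis, 10 were higher and 2 lower. Against MAK683 day 3 the direction turned for sterol sensing and uptake, with 9 genes higher and 1 lower and a median of 0.46. Sterol export had 2 higher and 3 lower there, and fatty acid synthesis 7 higher and 3 lower. FASN, fatty acid synthase, had 970.1 and 906 CPM under UNC1999 and 443 CPM under MAK683.

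**Figure D4:**
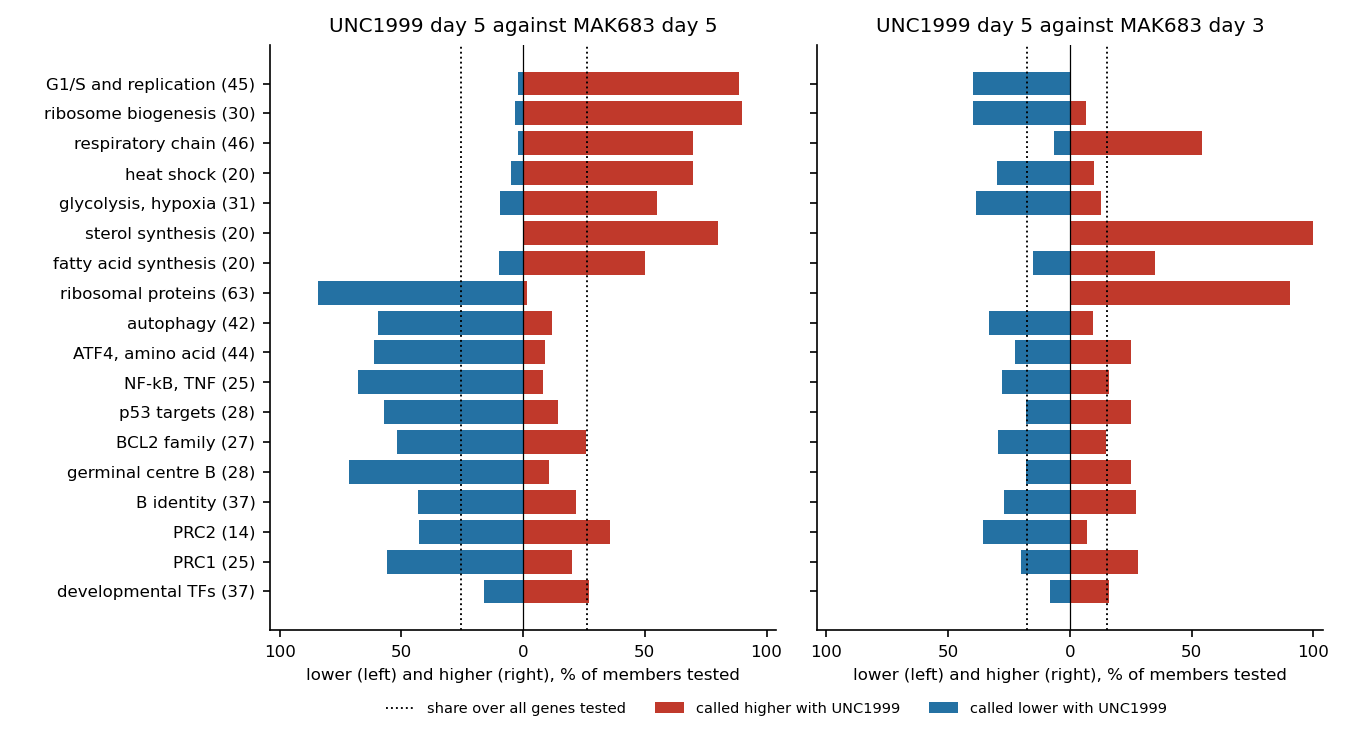
Percent of tested members of 18 gene groups called higher (bars to the right) and lower (bars to the left) in UNC1999 day 5 cells, against MAK683 day 5 (left) and MAK683 day 3 (right), with dotted lines at the share over all genes tested. Of the G1/S genes 40 of 45 are higher against MAK683 day 5 and none against MAK683 day 3, while cholesterol synthesis is mostly higher in both.

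The amino acid response was lower under UNC1999 at day 5. Of 44 genes of the response to amino acid shortage, most of them known targets of the transcription factor ATF4, 27 were lower and 4 higher, with a median log2 difference of −0.67. ASNS, asparagine synthetase, stood at 195 and 197 CPM under UNC1999, 602 CPM under MAK683 and 658 and 692 CPM in untreated cells. TRIB3, a pseudokinase that damps the response, had 44.6 and 47.0 CPM under UNC1999, 173 CPM under MAK683 and 206 and 237 CPM in untreated cells. For these 2 genes the MAK683 library was close to the untreated libraries. Their log2 differences between MAK683 and untreated cells were −0.16 (edgeR adjusted p = 0.203) and −0.36 (edgeR adjusted p = 0.0528). The list as a whole was lower: 28 of the 44 genes (63.6%) were lower and 2 higher under MAK683 than in untreated cells. The median log2 difference there was −0.41, and 14.1% of all genes were lower in that comparison. At day 3 the order was reversed, with 31 of the 44 genes higher under UNC1999 than under MAK683 and 1 lower. Against MAK683 day 3, UNC1999 day 5 had 11 genes higher and 10 lower.

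Of 42 autophagy genes, 25 were lower and 5 higher under UNC1999 (2 higher without UNC1999 replicate 1). SQSTM1, the cargo receptor p62, had 91.8 and 85.4 CPM under UNC1999, 303 CPM under MAK683 and 212 and 245 CPM without compound. GABARAPL1, an autophagosome membrane protein, had 2.67 and 3.55 CPM under UNC1999, 32.3 CPM under MAK683 and 6.94 and 6.28 CPM without compound. Lysosomal genes were mixed, with 17 of 41 higher and 8 lower, as were genes of the endoplasmic reticulum chaperones, with 18 of 42 higher and 11 lower. The chaperone genes lower made up 26.2% of their list, near the 25.7% of all genes. Of 19 oxidative stress genes tested, 10 were higher and 3 lower. Of 19 genes of metallothioneins and zinc transport tested, 7 were higher and 3 lower. MT1X stood at 21.3 and 22.9 CPM under UNC1999 and 4.70 CPM under MAK683, both far below the 509 and 765 CPM of untreated cells. Set against MAK683 day 3, autophagy had 4 genes higher and 14 lower, lysosome 13 and 10, endoplasmic reticulum chaperones 10 and 11. Oxidative stress genes and the metallothionein and zinc list each had 2 higher and 6 lower there, the reverse of day 5.

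Of 28 p53 targets tested, BBC3 and FAS among them, 16 were lower under UNC1999 and 4 higher, with a median of −0.82. PMAIP1, the BH3-only protein NOXA, had 37.0 and 41.0 CPM under UNC1999, 156 CPM under MAK683 and 179 and 197 CPM without compound. Of 27 genes of the BCL2 family and its regulators, again with BBC3, 14 were lower and 7 higher. MCL1, which protects cells from death, had 630.0 and 633 CPM under UNC1999, 1830.4 CPM under MAK683 and 1513 and 1602 CPM without compound, so genes of opposite function were lower together. The p53 targets were, against MAK683 day 3, 7 higher and 5 lower, and the BCL2 family 4 higher and 8 lower.

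Of 25 NF-kappa-B target genes tested, 17 were lower under UNC1999 and 2 higher, with a median log2 difference of −1.07. RELB, a subunit of the non-canonical NF-kappa-B dimer, stood at 28.6 and 20.3 CPM under UNC1999, 304 CPM under MAK683 and 181 and 211 CPM without compound. BIRC3, an inhibitor of apoptosis that the pathway induces, had 23.6 and 22.1 CPM under UNC1999, 253 CPM under MAK683 and 171 and 168 CPM without compound. Their log2 differences were −3.64 ± 0.16 (edgeR adjusted p = 8.7e-15) and −3.47 ± 0.14 (edgeR adjusted p = 3.23e-15). Against MAK683 day 3 the list had 4 genes higher and 7 lower. Of 31 immediate early genes, 8 were higher and 13 lower, and against MAK683 day 3 the direction turned, with 9 higher and 2 lower and a median of 0.63.

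Among B cell genes, those of the germinal centre were mostly lower in the same comparison. Of 28 germinal centre genes, 20 were lower under UNC1999 and 3 higher, with a median of −0.68. GCSAM, a germinal centre signalling adaptor, stood at 9.95 and 11.4 CPM under UNC1999, 121 CPM under MAK683 and 175 and 187 CPM in untreated cells. MME, which encodes CD10, had 125 and 110.3 CPM under UNC1999, 353 CPM under MAK683 and 254 and 276 CPM in untreated cells. ID3, an inhibitor of E-proteins, was among the 3 genes higher, with 135 and 152 CPM under UNC1999, 38.1 CPM under MAK683 and 48.0 and 50.3 CPM in untreated cells. Of 37 B cell identity genes, 16 (43.2%) were lower and 8 (21.6%) higher, beside 25.7% and 26.4% of all genes. CD37, a tetraspanin of B cells, had 284 and 269 CPM under UNC1999, 1766 CPM under MAK683 and 678 and 785 CPM in untreated cells, a log2 difference of −2.68 ± 0.09 (edgeR adjusted p = 2.1e-16). PAX5, the factor that maintains B cell identity, had 242 and 228 CPM under UNC1999, 545 CPM under MAK683 and 338 and 399 CPM in untreated cells. Of 37 plasma and memory cell genes, 8 were higher and 8 lower (5 higher without UNC1999 replicate 2). Each direction made up 21.6% of the plasma and memory list, below the shares of all genes. PIM2, a kinase of that list, had 20.6 and 18.2 CPM under UNC1999, 230.0 CPM under MAK683 and 118 and 145 CPM in untreated cells. Germinal centre genes were, against MAK683 day 3, 7 higher and 5 lower, B cell identity genes 10 and 10, and plasma and memory cell genes 15 and 6.

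Antigen presentation and interferon genes moved both ways. Of 23 genes of class I presentation, 10 were lower and 7 higher. HLA-B had 1117 and 1059 CPM under UNC1999, 2387 CPM under MAK683 and 1008 and 1111 CPM in untreated cells, so for HLA-B the MAK683 library stood apart and the others overlapped. Class I genes are variable and alike in sequence, so their counts may be shared. Of 20 class II genes, 5 were higher and 7 lower (4 lower without UNC1999 replicate 2). HLA-DPA1 had 657 and 615 CPM under UNC1999, 379 CPM under MAK683 and 287 and 340.0 CPM in untreated cells. Of 46 interferon-stimulated genes, 18 were higher and 11 lower, with OAS3, an antiviral oligoadenylate synthetase, higher at 117 and 100.2 CPM under UNC1999 against 18.8 CPM under MAK683. Against MAK683 day 3 the class II genes turned, with 14 higher and 1 lower and a median of 0.54. Class I genes had 2 higher and 5 lower there, and interferon-stimulated genes 7 higher and 8 lower.

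Chromatin regulators also split. Of 14 genes of PRC2 core and accessory subunits, 5 were higher and 6 lower. PHF19, an accessory subunit that brings PRC2 to chromatin, had 178 and 173 CPM under UNC1999, 56.7 CPM under MAK683 and 74.1 and 72.8 CPM without compound. PHF1, its relative, had 10.5 and 11.1 CPM under UNC1999, 56.9 CPM under MAK683 and 36.0 and 38.7 CPM without compound. The relatives thus differed between the compounds in opposite directions, with log2 differences of 1.63 ± 0.10 and −2.39 ± 0.16. Of 25 PRC1 genes, 5 were higher and 14 lower. CBX2, a reader of the trimethyl mark, had 80.1 and 70.7 CPM under UNC1999 and 26.5 CPM under MAK683, whereas PHC3, a subunit that links PRC1 complexes, had 48.0 and 49.7 CPM under UNC1999 and 182 CPM under MAK683. Of 22 genes of demethylases and related histone modifiers, 5 were higher and 13 lower, KDM6B, an H3K27 demethylase, among the lower ones at 49.3 and 54.2 CPM under UNC1999 against 193 CPM under MAK683. Of 7 CDK inhibitors tested, 2 were higher and 4 lower (1 higher without UNC1999 replicate 2). Of 25 histone genes, 6 were higher and 2 lower (1 lower without UNC1999 replicate 2), and of 14 germline genes, 3 were higher and 2 lower (1 lower without replicate 1). The shares higher, 24.0% of the histone list and 21.4% of the germline list, lay below the 26.4% of all genes. MAGEA3, a germline antigen with near-identical copies that may share its counts, had 10.2 and 10.9 CPM under UNC1999 and 1.87 CPM under MAK683. PRC2 genes were, against MAK683 day 3, 1 higher and 5 lower, PRC1 genes 7 and 5, the demethylase list 1 and 9 and CDK inhibitors 1 and 1. Histone genes and germline genes each had 2 higher and none lower there. Over all lists, 345 members were higher and 343 lower against MAK683 day 5, and 276 and 205 against MAK683 day 3.

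The comparison of the compounds was repeated at day 3 and day 1, in other libraries with the same imbalance of 2 libraries against 1. At day 3, 22.6% of genes were called (10.8% higher, 11.8% lower under UNC1999), and at day 1, 8.05% (4.40% higher, 3.65% lower). The day 1 count was 1230 genes, and 761 without UNC1999 replicate 1 and 840 without replicate 2. Of the 4034 genes higher at day 5, 653 were also higher at day 3, which is 16.2% of the day 5 genes and 39.6% of the 1648 genes higher at day 3, and 598 were lower at day 3. Of the 3921 genes lower at day 5, 654 were also lower at day 3, which is 16.7% of the day 5 genes and 36.2% of the 1807 genes lower at day 3, and 495 were higher at day 3. At day 1, 193 (4.78%) of the genes higher at day 5 were higher and 230 (5.70%) lower. Of the genes lower at day 5, 174 (4.44%) were lower at day 1 and 303 (7.73%) higher. The shares in the same direction lay near the 4.40% higher and 3.65% lower of all genes at day 1. Those in the opposite direction lay above them. In all 3 days 116 genes were higher and 69 lower. Across 10879 genes the log2 differences of day 5 correlated with those of day 3 at Pearson r = 0.269 and with those of day 1 at 0.0271, while days 3 and 1 correlated at 0.357. Genes share their libraries within each day, so these values describe the libraries and are not tests.

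**Figure D5:**
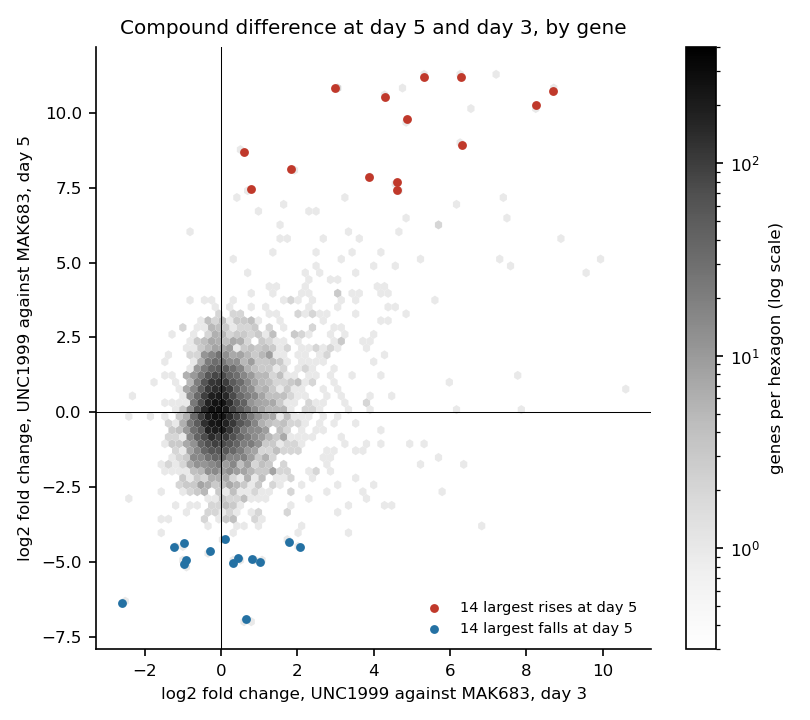
Log2 fold change of UNC1999 against MAK683 at day 5 (vertical axis) and at day 3 (horizontal axis), with the number of genes per hexagon as a grey shade on a log scale and points for the 14 largest rises and 14 largest falls at day 5. The fold changes of the days correlate at Pearson r = 0.269 over 10879 genes, and the 14 falls lie on both sides of 0 at day 3.

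Whether the difference between the compounds itself differed by day was tested as an interaction of day 5 against the mean of days 1 and 3. It was called for 45.8% of genes, 23.3% with a more positive difference at day 5 and 22.5% with a more negative one. TCF7, a transcription factor of Wnt signalling and of T cells, had 10.8 and 7.11 CPM under UNC1999 against 0.0678 CPM under MAK683 at day 1, 4.41 and 5.00 CPM against 0.295 CPM at day 3, and 10.5 ± 0.612 CPM (SD, n = 2) against 56.2 CPM at day 5. Its order thus turned at day 5, where untreated cells had 7.45 and 9.05 CPM. SCNN1G, a subunit of the epithelial sodium channel, turned likewise. It stood at 1.90 and 5.92 CPM under UNC1999 against 0.0295 CPM under MAK683 at day 3, then at 0.984 and 1.17 CPM against 15.0 CPM at day 5.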

How the data were processed

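RNA-seq counts per gene were used from 13 libraries of the human lymphoma line SUDHL10. Per the labels' protocols, RNA was extracted with TRIzol, prepared with a TruSeq kit that does not mark strand and sequenced as 50 bp single-end reads, so reads of a gene and its antisense partner cannot be told apart. The deposited table holds raw counts for 25369 genes, with no normalization by the authors. The submitters' processing notes name STAR 2.5.3a among tools for several assays of the series; no counter, annotation or human genome build is given in the sources used here, and no sequence or position is printed. The columns were matched to samples by their names, and the 2 untreated columns share 1 name.

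From these counts, edgeR 4.0.16 in R 4.3.3 kept 15278 genes (filterByExpr by group), scaled libraries by TMM and fitted all 13 with a mean per compound and day, with 5 residual degrees of freedom. Quasi-likelihood tests were adjusted by Benjamini-Hochberg over all genes with a threshold of 0.05. Each SE was taken as the size of the log2 difference over the square root of its F statistic. CPM values are counts scaled to the TMM-adjusted library size. The lone MAK683 library of a day was taken to vary like the replicated groups. Genes with no count in the MAK683 library are given as a bound against 3 counts, and those with 1 count as a ratio with an exact 95% interval. The fit was tested on simulated data. Replicates of each group differed by more than counting noise, so none was merged.

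The named genes were PRC2 subunits and CDKN2A, the 14 largest called rises and falls with a mean log2 CPM of at least 1 (clone-type names left out), up to 5 called members of each of 39 gene lists by adjusted p, and 5 genes of each sign from the interaction. B cell markers and genes named in other contrasts were described beside them. Some genes are not reported here. The comparison, the members and the lists were chosen with earlier results of these data known. Alternatives covered scaling, filters, DESeq2 1.42.0, fewer libraries, a replicate block and another MAK683 day. Replicate numbers of the UNC1999 days did not pair the libraries, and the MAK683 groups have replicate 1 alone.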

Additional observations from a re-analysis of the deposited data

Results flagged for a closer look

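The difference between UNC1999 and MAK683 differed between day 5 and the mean of days 1 and 3 for 7001 of 15278 genes, by the interaction term of the same edgeR fit. With 1 MAK683 library at each day, a change of the compound's effect and the state of that library cannot be told apart. The interaction is given on the log2 scale. Where a gene had no count under MAK683 at day 1, 3 or 5, its size depends on the prior count and is no bound. Among called genes at the same expression floor, the most positive values were 9.99 for LY6E, 8.88 for IGSF9B, 8.33 for CTXN1, 8.19 for TST and 7.21 for AGR2. Of these, AGR2 alone had counts under MAK683 at day 5. ROR2 (8.73), MTUS1 (7.59), FHAD1 (7.36) and SOX9 (7.33) had values in the same range but were not called. They had no count under MAK683 at day 5 and at an earlier day as well. The most negative called values were −8.72 for SCNN1G, −8.00 for INHBC, −7.89 for TCF7, −7.60 for OPTN and −7.37 for TP63. INHBC encodes a subunit of activin C, and OPTN is an autophagy receptor. INHBC had 0.278 and 0.378 CPM under UNC1999 against no count under MAK683 at day 1. It had 2.19 and 4.40 CPM against 0.413 CPM at day 3, and 0.958 and 0.547 CPM against 7.33 CPM at day 5. OPTN had 0.555 and 0.206 CPM under UNC1999 against no count under MAK683 at day 1. It had 0.824 and 2.66 CPM against 0.0295 CPM at day 3, and 3.29 and 3.01 CPM against 8.26 CPM at day 5. The day 5 log2 difference of OPTN, −1.39, was no longer called without either UNC1999 library, at −1.46 and −1.33 (edgeR adjusted p = 0.0587 and 0.0818). TP63 did not differ at day 3 beyond the threshold, with 14.9 and 25.1 CPM under UNC1999 against 12.8 CPM under MAK683 (edgeR adjusted p = 0.0874).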

How the results depend on the processing

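The count of genes called between the compounds at day 5 was 7955 and lay between 6729 and 9068 under the planned settings, with 7038 to 7099 when either UNC1999 library was left out and 7622 with DESeq2. With MAK683 day 3 in place of day 5, chosen after the data were seen, it was 5031, and the list members called lower numbered 205 in place of 343. Under that change 79 of the 221 named genes had the opposite sign, some of them called in only 1 of the comparisons. A further 61 were no longer called. By construction the change brings in another MAK683 library and day. Under the planned settings no called gene among them changed sign, and 190 to 219 kept their call; 30 genes had no value under the 10 CPM filter. At day 3, 1648 genes were higher and 1807 lower; scaling by library size alone gave 1875 and 1310, a share higher of 58.9% in place of 47.7%. At day 1 the count was 1230, and 761 to 840 without either UNC1999 replicate, where the arm rests on 1 library assumed to vary like the others. The replicate block gave 7943 genes at day 5; same-numbered UNC1999 libraries correlated at −0.077 to 0.175 in their deviations, so the numbers do not pair them. Genes at a few counts, such as HOXB9 and CD33, are limited by depth.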
